A study of Mus musculus with 16 samples.

Results

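The dual-specificity MAP kinase phosphatases described here are 9 genes of the 23356 in the expression table: *Dusp1*, *Dusp2*, *Dusp4*, *Dusp5*, *Dusp6*, *Dusp7*, *Dusp10*, *Dusp14* and *Dusp16*. They were taken by gene symbol and not by their levels, and each symbol had a single row. The cells were dendritic cells derived from bone marrow (BMDCs) of mice on a C57BL/6 background, and RNA-seq was done on 2 samples per condition in the labels, 16 in all. The 4 genotypes were wild type, *Tmem173*-/-, which lacks the adaptor STING, *Irf1*-/-, which lacks the transcription factor IRF1, and *Irf3/7*-/-, a double knockout of the factors IRF3 and IRF7. BMDCs of each genotype were left untreated (NT) or given c-di-GMP (CDG), a bacterial cyclic dinucleotide that activates STING, for 18 h at 25 μg/ml as the labels give it. The legends of the study give a higher dose for the RNA-seq. All groups were grown from bone marrow with GM-CSF and IL-4, and the floating and loosely attached cells were taken, and the methods name no sort for a cell type. The knockouts affect every cell of the animal, so the marrow from which these cultures were grown carried them as well. The methods state that sex-matched young adult mice were used, and the labels do not say whether the 2 samples of a condition came from separate animals.

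These phosphatases switch off MAP kinases, the enzymes ERK, JNK and p38 that carry signals from receptors at the cell surface and from stress to transcription factors. A MAP kinase is active while a threonine and a tyrosine in its activation loop carry phosphate, and a dual-specificity phosphatase removes both. Many of the genes are themselves transcribed in response to MAP kinase signalling, which makes them feedback inhibitors, and in macrophages *Dusp1* in particular is known to limit inflammatory cytokine production. *Dusp1*, *Dusp2*, *Dusp4* and *Dusp5* encode the inducible phosphatases of the nucleus. *Dusp6* and *Dusp7* encode cytoplasmic phosphatases that act mainly on ERK, and *Dusp10* and *Dusp16* encode phosphatases that act mainly on JNK and p38. *Dusp14* encodes a small atypical phosphatase without the MAP kinase-binding domain of the other members.

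Levels are in FPKM, the fragments mapped to a gene scaled by its transcript length and by the size of the library. The table held 1 such value for each of the 8 conditions, in which the authors had combined the replicates, with the bounds of a confidence interval. There was therefore no spread between replicates, and no p-value was computed. Precision is that of the authors' intervals, which are given in brackets and whose half-width ran from 22.6% to 67.5% of the FPKM over the 72 values of the members, with a median of 29.3%. A gene was tested in a comparison when either condition reached 1 FPKM. It was called higher or lower when the levels, as log2(FPKM + 0.1), differed by more than 2-fold and the intervals lay apart. A difference on this scale is given below as a log2 difference, and it understates the change of a gene near 0. Every comparison with wild-type BMDCs uses the same wild-type values, so the comparisons are not independent of each other.

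The targeted genes were read first. *Tmem173* was at 8.97 and 7.49 FPKM in the *Tmem173*-/- conditions and between 77.0 and 118 FPKM in the other 6. *Irf7* was at 4.97 FPKM in treated *Irf3/7*-/- BMDCs against 687 FPKM in treated wild type. *Irf3*, by contrast, was at 20.2 FPKM (14.8 to 25.7) in the treated BMDCs labelled *Irf3/7*-/- and at 15.8 (11.6 to 20.0) in treated wild type. It was thus not lower in that condition, and the intervals overlapped. Without treatment it was at 7.74 FPKM (5.55 to 9.96) in *Irf3/7*-/- and 19.9 (15.4 to 24.5) in wild type, with intervals apart and lower in the knockout. *Irf1* was at 25.9 FPKM in untreated and 116 FPKM (82.8 to 149) in treated *Irf1*-/- BMDCs, against 149 and 245 FPKM in wild type. Low levels of *Irf1* and *Irf7* were not confined to their own knockouts. In untreated and treated *Tmem173*-/- BMDCs *Irf1* was at 24.1 and 23.3 FPKM and *Irf7* at 3.17 and 3.37 FPKM. An FPKM covers the whole gene and the deleted parts are not given, so these levels do not check the deletion of *Irf1* or *Irf3*. Because treated *Irf3* was not below wild type, the treated condition of the double knockout is called labelled *Irf3/7*-/- below. The genotype name alone stands for that label.

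Dendritic cell markers were at high levels in every condition. The 8 listed summed to between 4723 and 8179 FPKM, although *Flt3* stayed between 1.17 and 2.75 FPKM and *Cd209a* was listed at 0 in treated wild type. *Cd74*, between 3336 and 4983 FPKM, made up most of each sum. The MHC class II genes were lower in *Irf1*-/-. Untreated and treated, *H2-Eb1* was at 121 and 152 FPKM there against 454 and 729 in wild type, and *H2-Aa* at 364 and 462 against 1031 and 1424. *H2-Ab1* was lower as well. *Itgax* was higher in *Irf1*-/-, at 369 and 255 against 210 and 135 FPKM in wild type. It was also above wild type in *Tmem173*-/-, at 305 and 328 FPKM, and in *Irf3/7*-/-, at 263 and 233 FPKM. Markers of other cells were present and differed between genotypes as well. The 7 T cell markers in the table summed to 68.4 FPKM in untreated and 49.6 in treated wild type, and to 1.76 and 1.73 FPKM with *Tmem173*-/-. They summed to 6.43 and 10.2 FPKM with *Irf1*-/- and to 93.9 and 167 FPKM with *Irf3/7*-/-. The 7 NK cell markers summed to 686 and 674 FPKM, 4.98 and 4.16, 18.0 and 27.8, and 701 and 2177 FPKM in the same order, with *Gzma* listed at 0 in both *Tmem173*-/- conditions. *Gzma* and *Gzmb* made up most of the NK cell sum outside *Tmem173*-/-. The 6 neutrophil markers in the table summed to 19260 and 13913 FPKM in *Tmem173*-/- and to between 1364 and 3922 FPKM in the other conditions, and *S100a8* and *S100a9* made up most of these sums. The 5 B cell markers summed to between 3.34 and 10.7 FPKM. In bulk RNA, fewer cells of a type and less RNA per cell cannot be told apart.

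*Dusp1* and *Dusp5* held most of the family's RNA. The 9 genes summed to 130 FPKM in untreated wild-type BMDCs, and *Dusp1* and *Dusp5* made up 58.1% of it. After c-di-GMP the sum was 248 FPKM in wild type, 243 FPKM in *Irf1*-/- and 277 FPKM in the condition labelled *Irf3/7*-/-. Without STING it was 75.7 FPKM untreated and 78.1 FPKM treated. *Dusp5* was the highest member in untreated wild type and untreated *Irf1*-/-, and *Dusp1* in the other 6 conditions. The intervals of the pair lay apart in untreated wild type and treated *Irf1*-/- BMDCs and overlapped in the remaining conditions. *Dusp14* was the lowest member in every untreated condition.

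**Figure D1:**
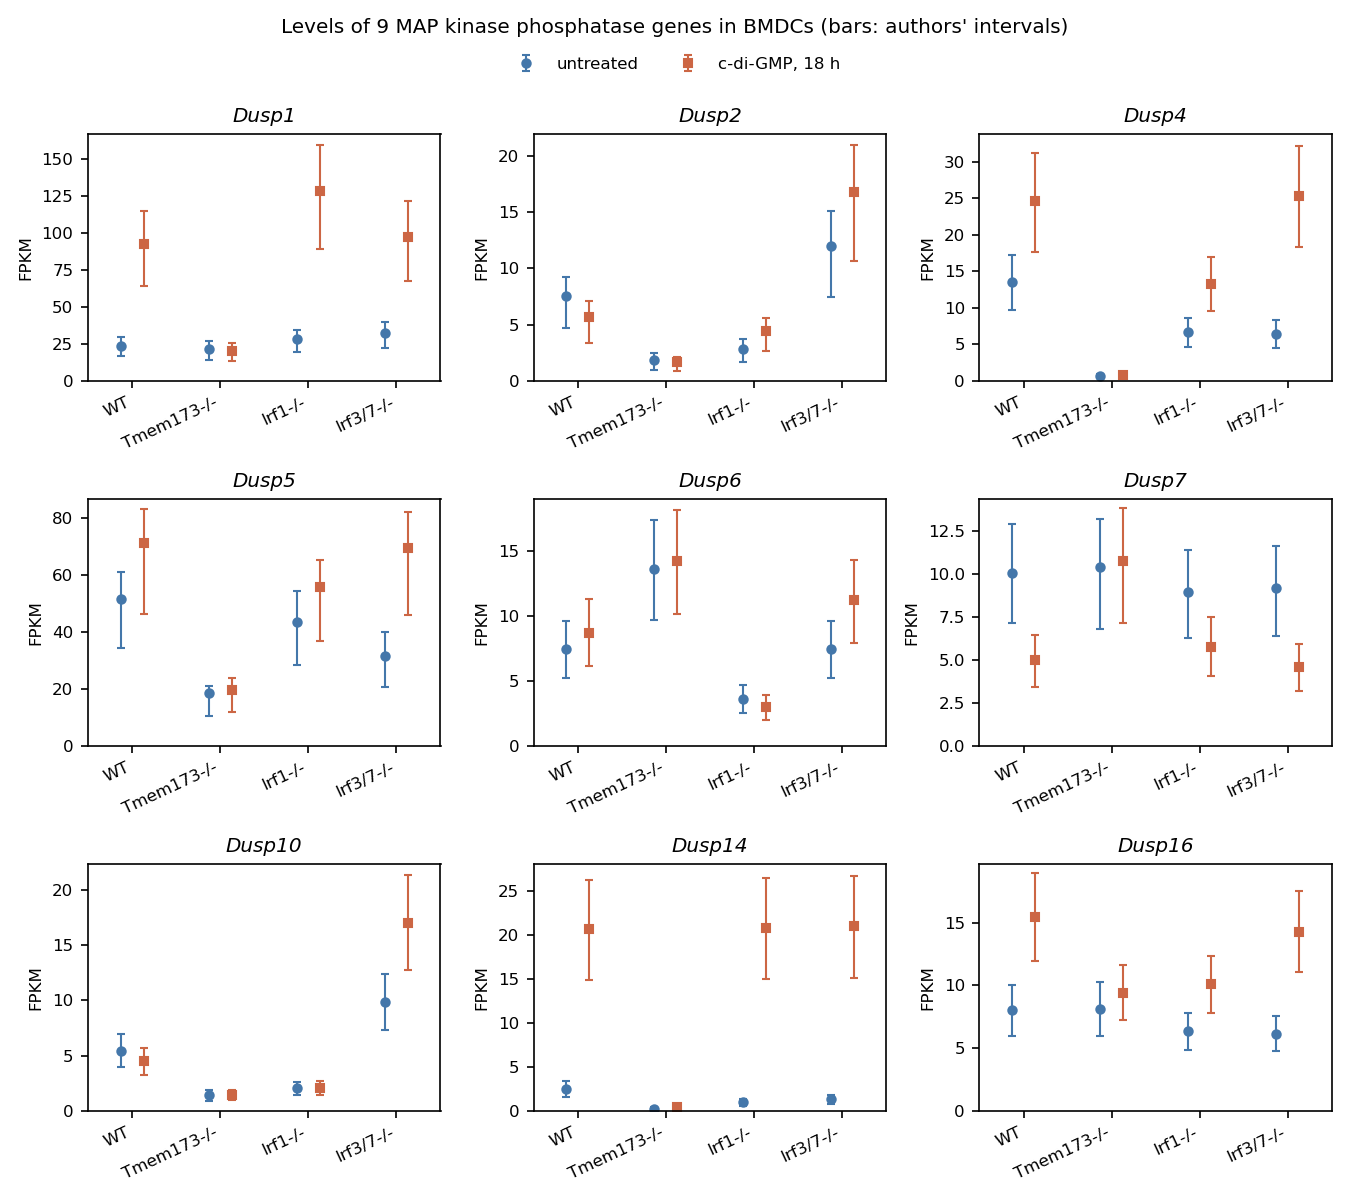
FPKM (vertical axes, each starting at 0) of the 9 phosphatase genes in 4 genotypes (horizontal axes), untreated (blue circles) or after 18 h of c-di-GMP (orange squares), with the authors' intervals as bars. *Dusp1* and *Dusp14* separate by treatment in wild type, *Irf1*-/- and *Irf3/7*-/-, *Dusp4* is below 1 FPKM in both *Tmem173*-/- conditions, and *Dusp2* and *Dusp10* are highest in the treated condition labelled *Irf3/7*-/-, at 16.8 and 17.1 FPKM.

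Upstream sequences of the members on which the results below turn are shown so that the letters can be read beside the levels. They are the 250 bases before the RefSeq transcription start (assembly GRCm38.p6), 5′ to 3′ on the strand of the gene, at chr17:26508473-26508722 on the minus strand for *Dusp1*, chr11:84068358-84068607 on the minus strand for *Dusp14*, chr19:53528895-53529144 on the plus strand for *Dusp5*, chr2:127335909-127336158 on the plus strand for *Dusp2* and chr1:184034131-184034380 on the plus strand for *Dusp10*. Capitals mark the cAMP response element TGACGTCA in *Dusp1* and a pair of adjoining CArG boxes, the motif of serum response factor, in *Dusp5*, and the other sequences hold none of the longer motifs searched. *Dusp1* and *Dusp14* are shown because they were called higher in every genotype but *Tmem173*-/-, *Dusp5* for its CArG boxes, and *Dusp2* and *Dusp10* because their levels followed each other.
Dusp1: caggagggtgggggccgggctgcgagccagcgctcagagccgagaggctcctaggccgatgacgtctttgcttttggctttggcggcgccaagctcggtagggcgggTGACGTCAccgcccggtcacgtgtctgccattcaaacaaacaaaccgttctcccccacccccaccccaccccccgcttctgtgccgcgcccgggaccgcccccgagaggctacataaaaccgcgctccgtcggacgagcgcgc
Dusp14: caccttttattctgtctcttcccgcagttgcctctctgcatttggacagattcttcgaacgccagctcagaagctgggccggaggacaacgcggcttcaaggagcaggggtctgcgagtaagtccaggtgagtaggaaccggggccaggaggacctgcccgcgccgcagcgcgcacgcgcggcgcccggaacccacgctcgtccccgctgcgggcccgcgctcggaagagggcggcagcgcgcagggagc
Dusp5: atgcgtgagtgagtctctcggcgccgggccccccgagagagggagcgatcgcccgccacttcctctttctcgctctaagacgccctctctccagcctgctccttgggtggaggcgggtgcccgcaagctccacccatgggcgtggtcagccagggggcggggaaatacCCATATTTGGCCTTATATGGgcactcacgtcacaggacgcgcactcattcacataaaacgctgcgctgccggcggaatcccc
Dusp2: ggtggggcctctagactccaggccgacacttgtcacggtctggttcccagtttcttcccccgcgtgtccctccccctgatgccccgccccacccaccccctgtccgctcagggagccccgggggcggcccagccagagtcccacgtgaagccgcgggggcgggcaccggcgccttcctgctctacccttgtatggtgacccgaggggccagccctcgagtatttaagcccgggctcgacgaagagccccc
Dusp10: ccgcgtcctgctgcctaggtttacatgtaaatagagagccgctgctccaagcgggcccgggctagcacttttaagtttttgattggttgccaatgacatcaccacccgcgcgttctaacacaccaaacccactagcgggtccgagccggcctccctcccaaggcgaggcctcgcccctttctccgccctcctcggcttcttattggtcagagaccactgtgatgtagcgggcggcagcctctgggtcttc

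Windows were at hand for 8 of the 9 members, *Dusp4* being the exception, and motifs were searched on both strands from 250 bases before to 50 after the start. The core of the interferon-stimulated response element, a pair of GAAA runs with 2 letters between them, was in 0 of the 8 and in 3.44% of the 32851 windows of all genes. The AP-1 motif TGANTCA was likewise in 0 of the 8 and in 7.81% of all windows, and the NF-kB motif in 0 of the 8 and in 8.46% of all. The cAMP response element began 143 bases before the *Dusp1* start and was in 1.79% of all windows. Its first 5 letters, TGACG, which overlap it, were in *Dusp1*, *Dusp2*, *Dusp5* and *Dusp16*, 4 of the 8, and in 20.8% of all windows. The CArG boxes of *Dusp5* began 82 and 72 bases before its start, and such a box was in 1.63% of all windows. The RefSeq starts of *Dusp5* and *Dusp10* lie upstream of the first base of their loci in the table. These matches describe the letters of the windows and are not measured binding sites.

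*Dusp1*, on chromosome 17 from 26505591 to 26508472 at the GRCm38 position the table gives, encodes the phosphatase best known for ending p38 and JNK activity. Without c-di-GMP, *Dusp1* was at 23.7 FPKM (16.4 to 29.3) in wild type, 21.2 (13.9 to 26.9) in *Tmem173*-/-, 27.9 (19.3 to 34.3) in *Irf1*-/- and 32.0 (22.3 to 39.4) in *Irf3/7*-/-. With c-di-GMP the levels were 92.4 FPKM (63.9 to 115) in wild type, 19.9 (13.2 to 25.5) in *Tmem173*-/-, 128 (88.6 to 159) in *Irf1*-/- and 97.4 (67.6 to 121) in the condition labelled *Irf3/7*-/-. The 3 treated conditions with STING thus stood above the other 5, with a gap in the intervals between 32.0 and 92.4 FPKM and overlapping neighbours everywhere else in the order. The log2 difference between treated and untreated BMDCs was 1.96 in wild type, 2.19 in *Irf1*-/- and 1.60 in *Irf3/7*-/-, and *Dusp1* was called higher in each. The *Tmem173*-/- value was -0.09 and was not called.

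*Dusp14*, on chromosome 11 from 84048045 to 84068357, had the widest range of the members, with its highest FPKM 93.5 times its lowest. The untreated levels of *Dusp14* were 2.49 FPKM (1.60 to 3.36) in wild type, 0.225 (0.0827 to 0.386) in *Tmem173*-/-, 0.946 (0.524 to 1.35) in *Irf1*-/- and 1.31 (0.772 to 1.82) in *Irf3/7*-/-. The treated levels were 20.7 FPKM (14.9 to 26.3) in wild type, 0.367 (0.165 to 0.579) in *Tmem173*-/-, 20.8 (14.9 to 26.5) in *Irf1*-/- and 21.0 (15.1 to 26.8) in the condition labelled *Irf3/7*-/-. The 3 treated levels between 20.7 and 21.0 FPKM had overlapping intervals, while untreated *Irf1*-/- lay below untreated wild type with intervals apart. The log2 difference after c-di-GMP was 3.01 in wild type, 4.32 in *Irf1*-/- and 3.91 in *Irf3/7*-/-, all called higher. The gene stayed under 1 FPKM in both *Tmem173*-/- conditions and was not tested there.

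Among all genes, 10.5% of the 11201 tested were called higher and 9.96% lower in treated against untreated wild-type BMDCs. Of the 9 members, 2 were called higher, *Dusp1* and *Dusp14*, and 1 lower, *Dusp7*. The median log2 difference of the members was 0.47, beside 0.00 over all genes tested. In *Tmem173*-/- BMDCs 0.046% of 10867 genes were called higher and 0.0092% lower, and none of the 7 members tested was called in either direction. In *Irf1*-/- BMDCs 9.67% of genes were called higher and 7.81% lower, and 2 of the 9 members were called higher and 0 lower. In the *Irf3/7*-/- BMDCs 10.2% of genes were called higher and 7.68% lower, and 5 of the 9 members were called higher and 0 lower. The 5 were *Dusp1*, *Dusp4*, *Dusp5*, *Dusp14* and *Dusp16*, with a median over all 9 of 1.14 on the log2 scale. The T and NK cell marker sums went from 93.9 to 167 FPKM and from 701 to 2177 FPKM with treatment in that genotype, and from 68.4 to 49.6 FPKM and from 686 to 674 FPKM in wild type, and their part in the 5 calls was not tested. With so few members, the counts in wild type and *Irf1*-/- lay near the shares over all genes.

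*Dusp4* and *Dusp5*, the other inducible nuclear phosphatases with sizeable levels, were lower in *Tmem173*-/- BMDCs even without treatment. *Dusp4*, on chromosome 8 from 34807610 to 34819894, encodes a phosphatase of ERK and JNK. Untreated, it was at 13.4 FPKM (9.65 to 17.2) in wild type, 0.605 (0.328 to 0.885) in *Tmem173*-/-, 6.59 (4.62 to 8.54) in *Irf1*-/- and 6.37 (4.46 to 8.24) in *Irf3/7*-/-. After c-di-GMP it had 24.6 FPKM (17.6 to 31.2), 0.701 (0.41 to 0.983), 13.2 (9.47 to 16.9) and 25.3 (18.3 to 32.2) in the same order. Treated and untreated intervals lay apart in the 3 genotypes with STING. The log2 difference was above the 2-fold threshold only in the condition labelled *Irf3/7*-/-, at 1.97, and was 0.87 in wild type and 0.99 in *Irf1*-/-. The levels fell into 4 steps whose intervals lay apart: both *Tmem173*-/- conditions, the untreated *Irf3/7*-/- and *Irf1*-/- conditions, treated *Irf1*-/- with untreated wild type, and treated wild type with the treated condition labelled *Irf3/7*-/-.

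*Dusp5*, on chromosome 19 from 53529318 to 53541322, encodes a nuclear phosphatase that acts on ERK. Without c-di-GMP, *Dusp5* was at 51.6 FPKM (34.4 to 61.1) in wild type, 18.4 (10.4 to 21.0) in *Tmem173*-/-, 43.6 (28.4 to 54.4) in *Irf1*-/- and 31.6 (20.6 to 39.8) in *Irf3/7*-/-. With c-di-GMP the levels were 71.4 FPKM (46.4 to 83.2), 19.7 (11.8 to 23.7), 55.9 (36.9 to 65.4) and 69.7 (45.9 to 82.3) in the same order. *Tmem173*-/- BMDCs had the lowest levels, and every pair of neighbours in the order of the 8 levels had overlapping intervals. *Dusp5* was called higher after c-di-GMP in the condition labelled *Irf3/7*-/-, with a log2 difference of 1.14, and not in wild type, where it was 0.47. GENCODE places another gene, AC137853.2, within the *Dusp5* locus, and how its reads were counted is not stated.

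*Dusp2*, on chromosome 2 from 127336159 to 127338377, encodes a nuclear phosphatase first known from activated lymphocytes. The untreated levels of *Dusp2* were 7.50 FPKM (4.67 to 9.27) in wild type, 1.81 (0.983 to 2.48) in *Tmem173*-/-, 2.83 (1.62 to 3.71) in *Irf1*-/- and 12.0 (7.50 to 15.1) in *Irf3/7*-/-. The treated levels were 5.65 FPKM (3.37 to 7.05), 1.62 (0.885 to 2.11), 4.40 (2.61 to 5.58) and 16.8 (10.7 to 21.0) in the same order. The levels differed between genotypes, and treated and untreated intervals overlapped in all 4 genotypes. *Dusp10*, on chromosome 1 from 184034461 to 184075636, encodes a phosphatase of JNK and p38. Untreated, it was at 5.45 FPKM (3.96 to 6.92), 1.39 (0.909 to 1.86), 2.01 (1.38 to 2.64) and 9.89 (7.32 to 12.4) in the same order of genotypes. After c-di-GMP it had 4.47 FPKM (3.23 to 5.70), 1.42 (0.938 to 1.91), 2.08 (1.44 to 2.71) and 17.1 (12.7 to 21.4). *Dusp10* was thus lowest in *Tmem173*-/- and *Irf1*-/- and highest in *Irf3/7*-/-, where treated and untreated intervals lay apart within 2-fold, with a log2 difference of 0.78.

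*Dusp2* and *Dusp10* had a Pearson r of 0.97 with each other over the 8 conditions on the log2 scale, a description of 8 values that share genotypes and treatments. The summed T and NK cell markers moved with them. Both sums were lowest in *Tmem173*-/-, next in *Irf1*-/-, and highest in the treated condition labelled *Irf3/7*-/-, where *Gzmb*, a granzyme of cytotoxic lymphocytes, was at 1242 FPKM and *Cd3e*, a subunit of the T cell receptor complex, at 23.3 FPKM. Not every marker had that order. *Klrd1*, an NK cell receptor subunit, was at 4.83 and 4.01 FPKM in *Tmem173*-/- against 2.01 and 2.13 FPKM in wild type. *Eomes* was at 6.36 FPKM and *Klrb1c* at 0.618 FPKM in the treated condition labelled *Irf3/7*-/-, below the untreated *Irf3/7*-/- levels of 13.6 and 4.05 FPKM. In both *Tmem173*-/- conditions none of the 7 T cell markers and 1 of the 7 NK cell markers, *Klrd1*, reached 1 FPKM. *Dusp2* was at 1.81 and 1.62 FPKM there and *Dusp10* at 1.39 and 1.42 FPKM. Basophil and mast cell markers, 6 genes of which *Mcpt4* was listed at 0 in 7 conditions, also had a genotype difference. Their sum was highest in the treated condition labelled *Irf3/7*-/-, at 150 FPKM against 37.0 to 97.1 FPKM in the other conditions. The part of these other cells in the levels of *Dusp2* and *Dusp10* was not tested.

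**Figure D2:**
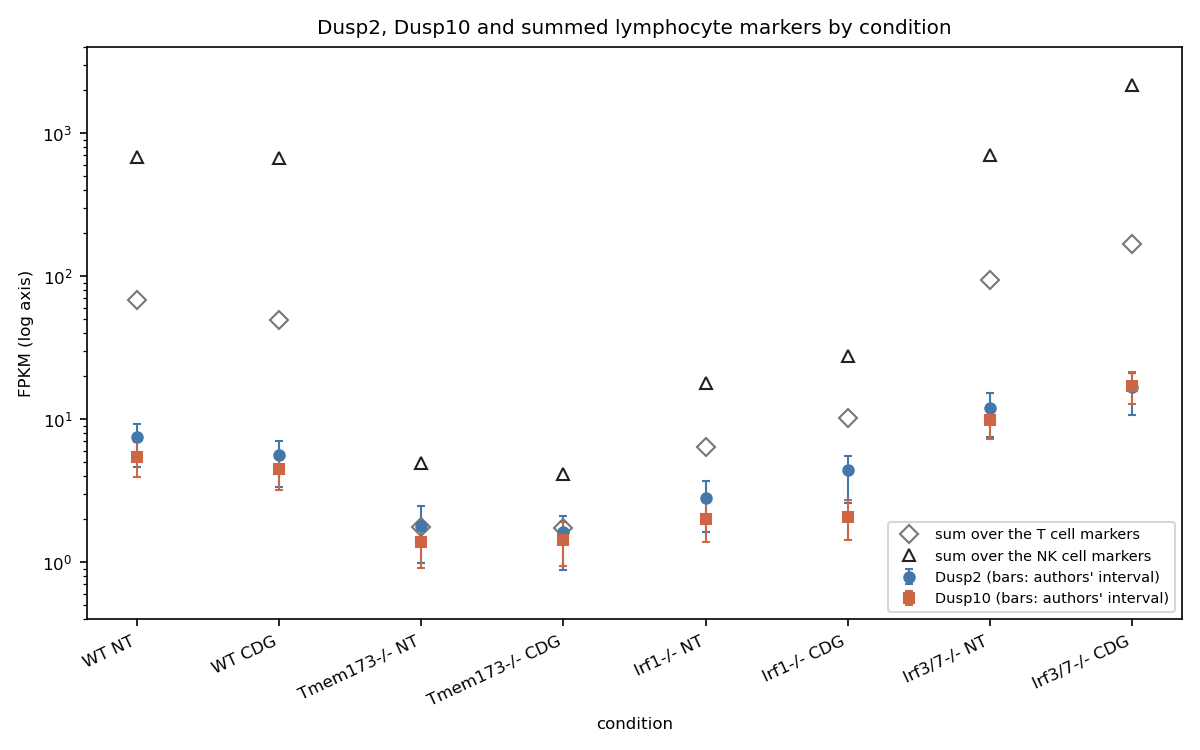
FPKM on a log axis of *Dusp2* (blue circles) and *Dusp10* (orange squares), with the authors' intervals as bars, and the sums over the T cell (open diamonds) and NK cell (open triangles) markers, in the 8 conditions along the horizontal axis. All 4 are lowest in *Tmem173*-/- and highest in the treated condition labelled *Irf3/7*-/-, where the NK cell markers sum to 2177 FPKM and *Dusp10* is at 17.1 FPKM.

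*Dusp6*, on chromosome 10 from 99263231 to 99267489, encodes the cytoplasmic phosphatase of ERK and had an order of its own. Without c-di-GMP, *Dusp6* was at 7.44 FPKM (5.19 to 9.58) in wild type, 13.6 (9.68 to 17.4) in *Tmem173*-/-, 3.62 (2.49 to 4.69) in *Irf1*-/- and 7.47 (5.20 to 9.61) in *Irf3/7*-/-. With c-di-GMP the levels were 8.70 FPKM (6.11 to 11.3), 14.3 (10.2 to 18.2), 2.99 (2.0 to 3.92) and 11.2 (7.92 to 14.3) in the same order. The highest levels were those of *Tmem173*-/- BMDCs and the lowest those of *Irf1*-/-, and c-di-GMP left treated and untreated intervals overlapping in each genotype. Macrophage markers, of which 5 of 6 were in the table, summed to 288 and 307 FPKM in *Tmem173*-/- and to between 80.3 and 125 FPKM in the other conditions, and the neutrophil sums given above were highest in *Tmem173*-/- as well. *Csf1r*, at 194 and 204 FPKM, and *Mrc1*, at 42.7 and 48.7 FPKM, carried the macrophage sum there. *Mertk* was lower, at 2.83 and 3.74 FPKM against 4.89 and 16.9 FPKM in wild type, and treated *Fcgr1* was at 29.3 against 40.6 FPKM. Their part in the *Dusp6* level was not tested.

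*Dusp7*, on chromosome 9 from 106368632 to 106375723, is the other cytoplasmic ERK phosphatase and was the only member called lower after c-di-GMP in any genotype, which was wild type. The untreated levels of *Dusp7* were 10.0 FPKM (7.13 to 12.9) in wild type, 10.4 (6.77 to 13.1) in *Tmem173*-/-, 8.92 (6.25 to 11.4) in *Irf1*-/- and 9.17 (6.39 to 11.6) in *Irf3/7*-/-. The treated levels were 4.96 FPKM (3.43 to 6.40), 10.7 (7.12 to 13.8), 5.75 (4.04 to 7.45) and 4.56 (3.16 to 5.93) in the same order. The treated levels were below 6 FPKM in the 3 genotypes with STING and the other 5 were above 8 FPKM. The log2 difference was -1.0 in wild type, just past the threshold, and a pseudocount of 1 FPKM or median centring ended that call. In *Irf3/7*-/- it was -0.99 with intervals apart, and in *Irf1*-/- it was -0.62 with overlapping intervals.

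*Dusp16*, on chromosome 6 from 134715473 to 134792628, encodes the other phosphatase of JNK and p38. Untreated, it was at 8.01 FPKM (5.98 to 10.0) in wild type, 8.13 (5.99 to 10.3) in *Tmem173*-/-, 6.34 (4.86 to 7.82) in *Irf1*-/- and 6.13 (4.72 to 7.54) in *Irf3/7*-/-. After c-di-GMP it had 15.4 FPKM (11.9 to 19.0), 9.42 (7.22 to 11.6), 10.1 (7.80 to 12.3) and 14.3 (11 to 17.5) in the same order. It was called higher in the condition labelled *Irf3/7*-/-, with a log2 difference of 1.21, and the difference was 0.94 in wild type, with intervals apart but within 2-fold. GENCODE places Gm36328 within the *Dusp16* locus, and reads of that gene could not be told apart here.

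Treated *Tmem173*-/- BMDCs were set beside treated wild type to ask which members differed without STING in the presence of its ligand. Of all genes, 12.9% were called higher and 13.5% lower, and of the 9 members 1 was called higher and 6 lower. The members' median log2 difference was -1.74, beside 0.02 over all genes tested. The largest log2 differences were -5.48 for *Dusp14* and -4.94 for *Dusp4*, the members under 1 FPKM without STING. They were -2.21 for *Dusp1*, -1.85 for *Dusp5*, -1.74 for *Dusp2* and -1.58 for *Dusp10*. *Dusp7* was called higher, with a log2 difference of 1.10 that a pseudocount of 1 FPKM took below the threshold, and *Dusp16* had intervals apart within 2-fold, with -0.71. *Dusp6* had a log2 difference of 0.71 and was not called. The T cell markers summed to 1.73 FPKM here and 49.6 FPKM in treated wild type, the NK cell markers to 4.16 and 674 FPKM and the neutrophil markers to 13913 and 1801 FPKM. Their part in these 7 calls was not tested.

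The same genotypes were compared without c-di-GMP. Among all genes 5.04% were called higher and 5.95% lower in untreated *Tmem173*-/- against untreated wild type, and of the 9 members 0 were called higher and 5 lower. The log2 difference was -4.26 for *Dusp4*, -3.00 for *Dusp14*, -2.0 for *Dusp2*, -1.90 for *Dusp10* and -1.49 for *Dusp5*. *Dusp1*, *Dusp7* and *Dusp16* had differences of -0.16, 0.05 and 0.02, and *Dusp6* was the other way, at 0.86 with intervals apart within 2-fold. The T cell markers summed to 1.76 FPKM against 68.4 in untreated wild type, the NK cell markers to 4.98 against 686 FPKM, and the neutrophil markers to 19260 against 3922 FPKM. Their part in these 5 calls was not tested.

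**Figure D3:**
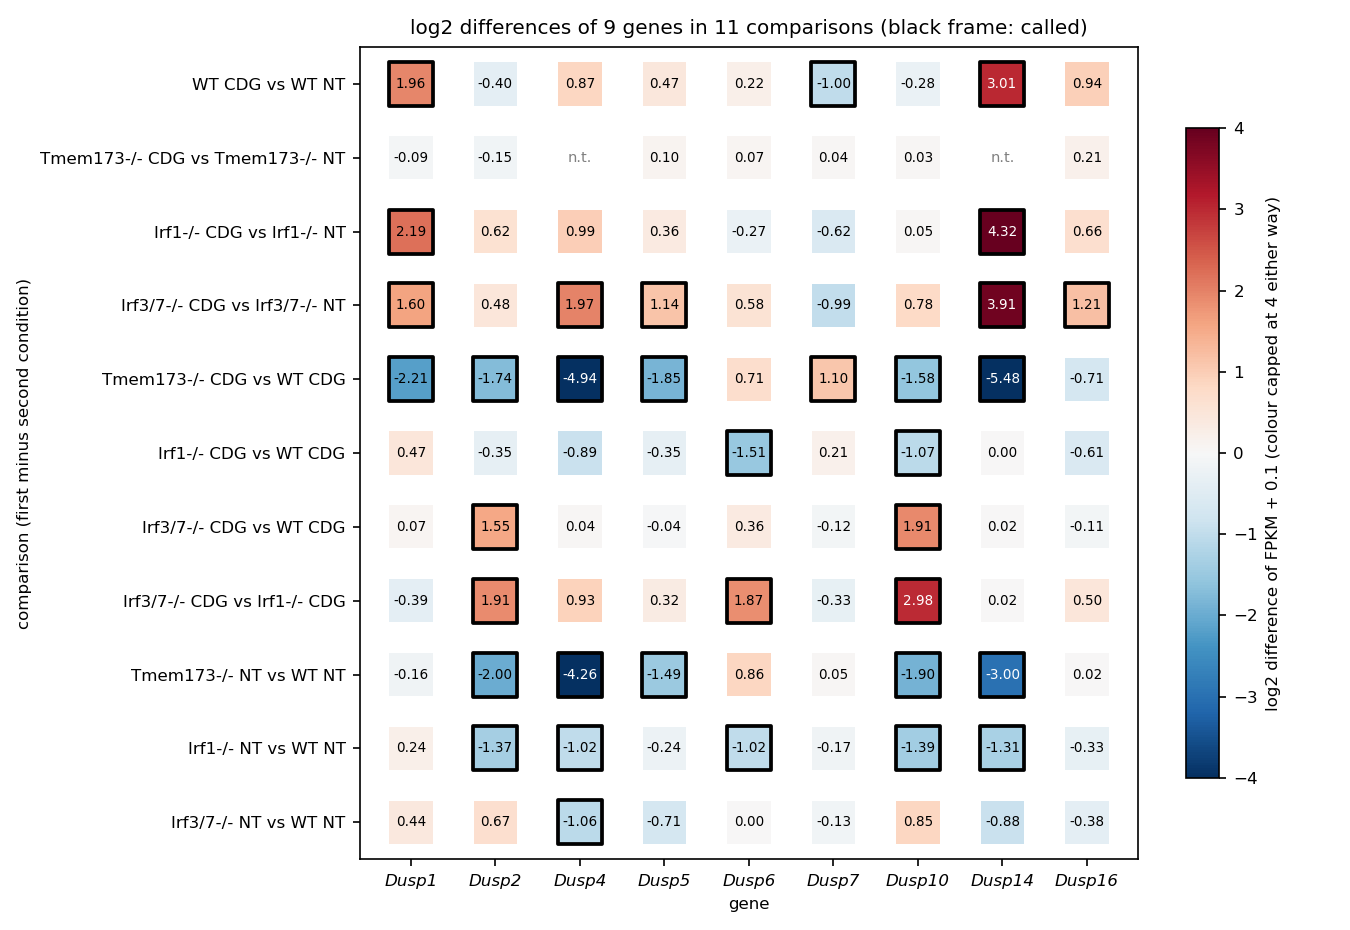
Log2 differences of FPKM + 0.1 of the 9 genes (horizontal axis) in 11 comparisons (vertical axis, first minus second condition), with red for higher and blue for lower values, black frames around called ones and n.t. where a gene was not tested. The row of treated *Tmem173*-/- against treated wild type holds 7 frames, 6 of them lower, down to -5.48 for *Dusp14*, and the row of treated against untreated *Tmem173*-/- holds none.

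In treated *Irf1*-/- against treated wild-type BMDCs, 2.65% of all genes were called higher and 4.91% lower, and of the 9 members 0 were called higher and 2 lower. The log2 difference was -1.51 for *Dusp6* and -1.07 for *Dusp10*. The *Dusp10* call was lost with a pseudocount of 1 FPKM, and the T and NK cell marker sums were 10.2 and 27.8 FPKM in this knockout against 49.6 and 674 FPKM. *Dusp4* had intervals apart within 2-fold, with a difference of -0.89, and *Dusp1* and *Dusp14*, the members called higher by c-di-GMP, had 0.47 and 0.00. Without treatment, 1.26% of genes were called higher and 3.52% lower in *Irf1*-/- against wild type, and of the 9 members 0 were called higher and 5 lower, with a median of -1.02. The 5 were *Dusp10* at -1.39, *Dusp2* at -1.37, *Dusp14* at -1.31, *Dusp4* at -1.02 and *Dusp6* at -1.02. A pseudocount of 1 FPKM ended the calls of *Dusp4*, *Dusp6* and *Dusp14*, and median centring ended those of *Dusp4* and *Dusp6*. The T cell and NK cell marker sums were lower in untreated *Irf1*-/- too, at 6.43 and 18.0 FPKM, and their part in the calls of either comparison was not tested.

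In the treated condition labelled *Irf3/7*-/- against treated wild type, 4.61% of all genes were called higher and 2.69% lower. Of the 9 members 2 were called higher, *Dusp10* at 1.91 and *Dusp2* at 1.55 on the log2 scale, and 0 lower. The other 7 had differences between -0.12 and 0.36. The T and NK cell marker sums were 167 and 2177 FPKM here against 49.6 and 674 FPKM, and their part in the calls of *Dusp2* and *Dusp10* was not tested. Untreated, 1.17% of genes were called higher and 0.863% lower in *Irf3/7*-/-, and 0 of the 9 members were called higher and 1 lower. That member was *Dusp4*, with -1.06, a call that a pseudocount of 1 FPKM ended. *Dusp10* had intervals apart within 2-fold, with 0.85.

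The treated conditions labelled *Irf3/7*-/- and *Irf1*-/- were also compared with each other, where 6.62% of genes were called higher in *Irf3/7*-/- and 3.22% lower. Of the 9 members 3 were called higher and 0 lower. *Dusp10* was higher by 2.98, *Dusp2* by 1.91 and *Dusp6* by 1.87 on the log2 scale. *Dusp4* had intervals apart within 2-fold, with 0.93. The NK cell markers summed to 2177 FPKM in the one and 27.8 FPKM in the other, and the T cell markers to 167 and 10.2 FPKM, and their part in the *Dusp2* and *Dusp10* calls was not tested.

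To compare the c-di-GMP response between genotypes, its log2 change in wild type was taken from that in each knockout, with a 95% interval propagated from the authors' intervals. Of the 27 differences, 8 had an interval that excluded 0 and 19 did not. In *Tmem173*-/- the change of *Dusp14* differed from that in wild type by -2.48 (-3.91 to -1.06) and that of *Dusp1* by -2.05 (-2.89 to -1.21). The change of *Dusp16* differed by -0.73 (-1.44 to -0.02) and that of *Dusp7* by 1.05 (0.18 to 1.92). In *Irf1*-/- the change of *Dusp14* was larger by 1.31 (0.32 to 2.30), with treated levels of 20.8 and 20.7 FPKM and a lower untreated level than in wild type. That of *Dusp2* differed by 1.02 (0.05 to 1.99), with -0.40 in wild type and 0.62 in *Irf1*-/-, neither of them called. In BMDCs labelled *Irf3/7*-/- the change of *Dusp4* was larger by 1.11 (0.29 to 1.92). That of *Dusp10* differed by 1.06 (0.30 to 1.83), with -0.28 in wild type and 0.78 in *Irf3/7*-/-, neither of them called. In this genotype the T and NK cell marker sums were higher treated than untreated by the amounts given above. Their part in these differences was not tested. The response of *Dusp1* differed from wild type by 0.23 (-0.56 to 1.02) in *Irf1*-/- and by -0.36 (-1.15 to 0.43) in *Irf3/7*-/-, intervals that include 0 and reach about 2-fold on one side. These intervals come from the authors' bounds and do not include the spread between animals beyond what those bounds hold.

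**Figure D4:**
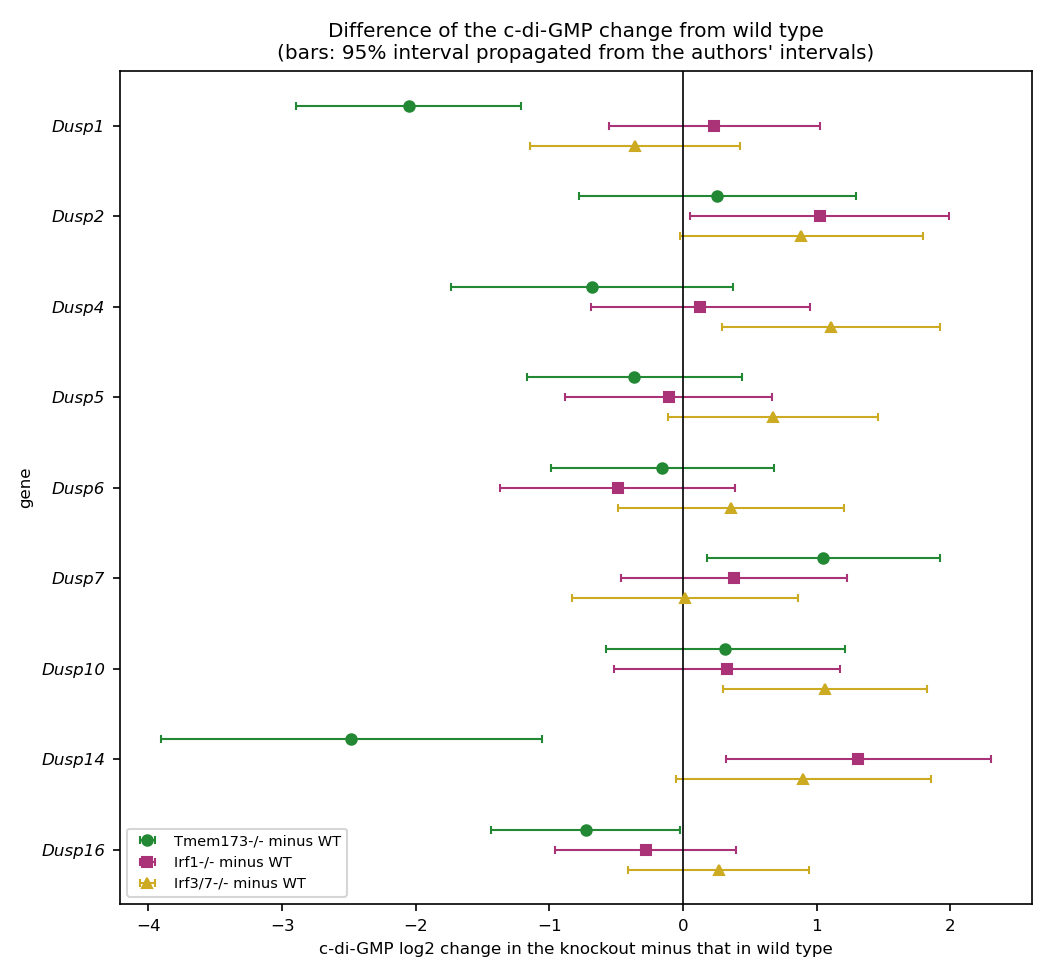
Difference between each knockout and wild type in the log2 change after c-di-GMP (horizontal axis) for the 9 genes (vertical axis), with green circles for *Tmem173*-/-, purple squares for *Irf1*-/- and yellow triangles for *Irf3/7*-/-, and bars for the propagated 95% interval. *Dusp14* and *Dusp1* in *Tmem173*-/- lie farthest from 0, at -2.48 and -2.05, and 19 of the 27 bars cross 0.

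The rest of the MAP kinase pathway gives the setting of these genes, from lists chosen by role. In treated against untreated wild type, 0 of 9 tested MAP kinases were called higher and 1 lower, *Mapk13*, a p38 isoform, which fell by 1.56 on the log2 scale, from 12.7 to 4.24 FPKM. Of the 25 kinases tested that act above them, 2 were called higher and 0 lower. *Map2k1*, which phosphorylates ERK, was at 43.6 FPKM untreated and 119 FPKM treated, and *Map3k8*, a kinase that feeds ERK from inflammatory receptors, at 7.58 and 15.4 FPKM. Of the 13 other MAP kinase inhibitors tested, 1 was called lower, the tyrosine phosphatase gene *Ptpn7*, at 56.0 FPKM untreated and 19.2 FPKM treated. None of the 10 kinases tested downstream of the MAP kinases was called. Over all genes, 10.5% were called higher and 9.96% lower in this comparison, and no count of these lists lay far above those shares.

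Genes known to respond to MAP kinase signalling were called in both directions in wild type, with 5 of the 21 tested higher and 4 lower, beside 10.5% and 9.96% of all genes. Among those higher, *Fos*, a subunit of AP-1, had a log2 difference of 2.29, *Atf3* 1.49 and *Zfp36*, which encodes an RNA-decay factor, 1.27. Among those lower, *Myc* had -2.27 and *Etv5* -1.43. The list's median was 0.23, beside 0.00 over all genes. In *Irf1*-/- BMDCs 3 of the 21 were called higher and 4 lower, beside 9.67% and 7.81% of all genes. In the condition labelled *Irf3/7*-/- 4 were called higher and 1 lower, beside 10.2% and 7.68%. *Map2k1* and *Map3k8* were called higher in both, with log2 differences of 1.61 and 1.13 in *Irf1*-/- and 1.47 and 1.92 in *Irf3/7*-/-. No tested gene of these lists was called after c-di-GMP in *Tmem173*-/- BMDCs.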

How the data were processed

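RNA-seq libraries of 16 samples, 2 for each of 8 conditions, were made with a stranded mRNA kit per the labels. The authors ran Cuffdiff (version 1.06 and build mm9 in the submitters' processing notes), which combined the replicates, and deposited an FPKM for each condition, with a status and with interval bounds that are in FPKM as well. The methods of the study give another Cuffdiff version, and 99.0% of 21681 named loci lay on the same-named GRCm38 gene, so positions are those of GRCm38. The methods give an opposing-strand setting for an analysis in SeqMonk. The aligner, the annotation and the strand setting behind the Cuffdiff table were not stated. Total counts per sample cannot be read from FPKM. Among 1503 low genes at most 3.26% shared a bin of 0.05 log2 units in FPKM relative to untreated wild type. Steps of single reads were not seen in these FPKM ratios, and the interval bounds were not searched for them. The 4 columns of another knockout were not used.

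Values were compared as log2(FPKM + 0.1) in 11 comparisons. A gene with at least 1 FPKM in one condition and status OK in both was called when the fold change exceeded 2 and the intervals lay apart. The calling code was run on simulated data with known changes. Differences of change took the standard error from the interval width over 1.96 on each side, for a level of 95%. Alternatives were pseudocounts of 1 and 0.01 FPKM, no filter, a minimum of 5 FPKM, a fold of 1.5, the fold alone and median centring. The members, the marker and pathway lists and the tests were chosen with earlier results of these data known. The rule for named genes took all members, the targeted genes, called genes of each list with the largest log2 differences and the 2 genes most like each member among 7373 with at least 10 FPKM in a condition. Genes of the marker lists and *Dusp8* were named after their values were seen. Sequences came from RefSeq promoter windows. Protein sequences were not used here. Tools were numpy 2.4.6 and pandas 2.3.3 under python 3.11.15, with figures from matplotlib 3.10.9.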

Additional observations from a re-analysis of the deposited data

How the results depend on the processing

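Of 35 calls of members over 97 tested pairs of a member and a comparison, 28 held under every alternative that tested them, and none reversed. A pseudocount of 1 FPKM ended 7 calls and median centring ended 3, while the fold alone changed none. With a pseudocount of 1 FPKM the number of members called was 1 in treated *Irf1*-/- against treated wild type, 2 in untreated *Irf1*-/- against untreated wild type and 0 in untreated *Irf3/7*-/- against untreated wild type. A minimum of 5 FPKM also gave 1 in treated *Irf1*-/- against treated wild type, since fewer genes are then tested, and median centring gave 3 in untreated *Irf1*-/-. A fold of 1.5 gave 5 in treated against untreated wild type and 2 in untreated *Irf3/7*-/-. A pseudocount of 1 FPKM draws low values together, and most of the calls it ended also lay close to the 2-fold threshold. Their largest log2 difference was -1.31, for *Dusp14* in untreated *Irf1*-/- against untreated wild type. The next in size was 1.10, for *Dusp7* in treated *Tmem173*-/- against treated wild type. The 3 calls that median centring ended were among them. How far each property accounted for the losses was not tested. Centring moved the median of a condition by at most 0.04 on the log2 scale. No paired analysis was possible because the table holds 1 value per condition, in which replicates are combined, and for the same reason no replicate could be left out.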

Other observations

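Of the 17 other dual-specificity phosphatase genes of the list, 8 were tested in treated against untreated wild type. *Dusp28* was the 1 called, higher, a count near the 10.5% of all genes called higher. *Dusp28* was at 4.31 FPKM in untreated and 12.1 FPKM in treated wild type, a log2 difference of 1.46, and was called higher in *Irf1*-/- as well, with 1.37. In *Irf3/7*-/- it was at 4.48 FPKM untreated and 7.40 FPKM treated, a log2 difference of 0.71 that was not called. In treated *Tmem173*-/- it was at 2.61 FPKM and was called lower than in treated wild type. *Dusp8*, a phosphatase of JNK and p38, was at 0.110 FPKM in untreated and 0.809 FPKM in treated wild type, under the 1 FPKM needed for a test, at 0.116 and 0.813 FPKM in *Irf1*-/-, and at 0.0429 and 0.0295 FPKM in *Tmem173*-/-. In *Irf3/7*-/- *Dusp8* was at 0.200 and 1.06 FPKM and was called higher, reaching 1 FPKM only in the treated condition. Of the 10 genes of the list tested in treated against untreated *Irf3/7*-/-, 2 were called higher, *Dusp13* and *Dusp8*. There 1 was called lower, *Dusp12*, and over all genes 10.2% were called higher and 7.68% lower. *Dusp13* was at 0.0688 FPKM in untreated *Irf3/7*-/- and 2.75 FPKM in the treated condition with that label, against 0.416 FPKM in treated wild type, and was called higher in both comparisons.

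Some pathway genes were called between treated genotypes as well, and the shares over all genes are given beside them. In treated *Tmem173*-/- against treated wild type, *Spry1*, which encodes an inhibitor of ERK signalling, was at 3.74 against 0.331 FPKM, and the p38 genes *Mapk13* and *Mapk14* were at 17.8 against 4.24 FPKM and 61.4 against 23.6 FPKM, all called higher. *Map2k1* was at 39.6 against 119 FPKM and was called lower. *Spry1* was called higher without treatment too, at 3.40 FPKM in *Tmem173*-/- against 0.899 FPKM in wild type. Of the 9 MAP kinases tested 2 were called higher and 0 lower, and of the 21 responsive genes 4 higher and 4 lower. Of the 27 kinases above the MAP kinases, 2 were called higher and 2 lower. The 14 other inhibitors had 2 higher and 0 lower, and the 10 downstream kinases 2 higher and 1 lower. Over all genes, 12.9% were called higher and 13.5% lower. In treated *Irf1*-/- against treated wild type, 2 genes of the lists were called, both higher: *Spry1* at 2.59 FPKM and *Egr2* at 75.3 against 36.2 FPKM. They were 1 of the 14 other inhibitors tested and 1 of the 21 responsive genes. None of the 9 MAP kinases, the 25 kinases above them or the 10 downstream kinases was called. Over all genes, 2.65% were called higher and 4.91% lower. In the treated condition labelled *Irf3/7*-/-, *Egr1*, an immediate early factor, was at 34.8 against 13.1 FPKM in treated wild type and was called higher. *Egr1* was also called higher in untreated *Irf3/7*-/- against untreated wild type. Of the 21 responsive genes tested in the treated comparison, 2 were called higher and 1 lower, beside 4.61% and 2.69% of all genes. Of the 14 other inhibitors 1 was called higher, *Ptpn5*. Of the 10 downstream kinases 1 was called higher, *Rps6ka2*, at 23.4 against 9.87 FPKM. None of the 9 MAP kinases or the 25 kinases above them was called.

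The genes with the highest Pearson r with a member on the log2 scale were named, a description of 8 values that share genotypes and treatments. An r does not measure the size of a change. *Casc3* stayed between 14.9 and 21.7 FPKM, while the highest level of *Dusp4* was 41.8 times its lowest. *Scfd1* stayed between 19.6 and 30.3 FPKM, while that ratio was 12.3 for *Dusp10*. *Socs3* and *Prmt2* had an r of 0.996 and 0.995 with *Dusp1*. *Socs3* was at 29.2 FPKM in untreated and 172 FPKM in treated wild type. *Eif2ak2* had an r of 0.999 with *Dusp14* and *Il2ra* one of 0.997. *Mcm6* and *Ung* had an r of 0.996 and 0.994 with *Dusp7*, and *Ung* was at 9.30 FPKM in untreated and 1.25 FPKM in treated wild type. *Cxcr6* and *F2r* had an r of 0.981 and 0.980 with *Dusp2*, and *Scfd1* and *Pim2* 0.990 and 0.989 with *Dusp10*. *Nfil3* and *Casc3* had 0.988 each with *Dusp4*, and *Cystm1* 0.985 and *Arhgap22* 0.983 with *Dusp5*. *Dram1* had 0.982 and *Map4k2* 0.974 with *Dusp6*, and *Sgpl1* 0.977 and *Mgea5* 0.974 with *Dusp16*. Between members, *Dusp4* and *Dusp5* had an r of 0.980, and *Dusp1* and *Dusp7* one of -0.955.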
